A study of Mus musculus with 4 samples.

Results

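Interferon-stimulated antiviral genes and RNA sensors were followed in mouse Th17 cells of the genotypes labelled PP2A WT and PP2A cKO. The set was a list of 52 gene symbols, and all 52 were found by name among the 52636 genes of the expression table. Of the 52 genes, 32 averaged at least 1 FPKM (fragments normalised to gene length and sequencing depth) across the 4 libraries and were tested together with all other such genes, 10562 in total. The other 20 lay under that level and are described by their reads. Of the 32 tested genes 10 rose in cKO and 0 fell. Ifih1, the gene of the RNA sensor MDA5, had the largest log2 fold change when 1 was added to each FPKM (1.81). Its ratio of mean FPKM was 4.13. That ratio was higher for the less abundant tested genes Usp18 (8.03) and Xaf1 (7.96).

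The cells were naive T cells of the C57BL/6 strain polarized in vitro for 2 days, with 2 libraries per genotype that the design text calls biological replicates. Both genotypes were cultured with irradiated antigen presenting cells, anti-CD3, anti-CD28, TGF-β1 and IL-6. Antibodies against IL-4 and against IFN-γ were present at 10 µg/ml each, and PMA and ionomycin were given for 4 h at the end. PP2A is a phosphatase of serine and threonine residues with catalytic, scaffold and regulatory subunits. The labels name neither the subunit that was deleted nor what drove the deletion, and how mice and cultures were separated is not given, so p-values reflect only the scatter among these libraries.

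Type I interferons bind the receptor pair IFNAR1 and IFNAR2, whose kinases JAK1 and TYK2 activate STAT transcription factors. A complex that includes STAT2 and IRF9 then binds the interferon-stimulated response element (ISRE) in promoters and switches on genes that sense, cut or trap viral RNA and protein. T cells keep many of these genes at a low level without infection, and several products (ISG15 with its protease USP18, the sensor MDA5) act back on the pathway itself.

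The libraries held 18517487 to 20387948 gene-assigned reads. Every T cell and Th17 marker was detected, from 17.8 to 675 FPKM for the T cell markers and up to 3318 for the Th17 cytokine gene Il17f. The 7 T cell markers summed to 907 and 862 FPKM in WT and to 1213 and 1299.7 in cKO, and the 7 Th17 markers to 4195 and 3854 against 3083 and 2976, so both sums separated the genotypes. Markers of other cells were low: 9 monocyte and macrophage genes summed to 1.91 and 2.29 FPKM in WT and 1.69 and 1.32 in cKO, with C1qa and C1qb at 0 in every library. The 7 dendritic cell genes summed to 0.582 and 0.455 FPKM in WT and to 0.668 and 0.646 in cKO, with Clec9a and Siglech at 0. The 8 B cell genes summed to 1.31 and 0.959 FPKM in WT and to 1.07 and 1.28 in cKO, and the 5 NK cell genes to 3.78 and 4.41 against 5.58 and 4.08, with Ncr1 and Klrb1c at 0. The 2 CD8 genes summed to 7.61 and 8.24 FPKM in WT and to 9.28 and 10.2 in cKO. The part of these differences in the results was not tested, and in bulk RNA fewer cells of a type and less RNA per cell cannot be told apart. The totals of Ppp2ca, Ppp2cb, Ppp2r1a and Ppp2r1b were not called (limma, adjusted p from 0.36 to 0.91). Since the deleted part is not named, these totals do not check the genotypes, and the directions below rest on the labels. The cKO libraries differed from each other along the GC content of transcripts (Spearman's rho = -0.529 across genes) and the WT libraries less so (rho = 0.121).

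The promoters of the listed genes were looked at first, because the ISRE is the sequence through which interferon is known to act. RefSeq promoters of GRCm38.p6 (250 bases before to 50 after each start) had an entry for 39 of the 52 genes. The ISRE core searched was GAAANNGAAA on either strand, with overlapping matches counted. It was present in 16 of the 39 genes (41.0%), against 3.99% of all 27025 genes with a promoter entry (3.44% of 32851 promoters). With a C after the core the shares were 28.2% and 0.94%. The GAS core TTCNNNGAA, the element of IFN-γ signalling, was in 8 genes (20.5%) against 9.55% of all genes. These matches describe letters in a window and are no evidence of a bound factor.

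The 6 windows that follow lie upstream of the annotated start and carry 30 bases on each side of the matches. They are given 5′ to 3′ along the gene's strand, with the matched core in capitals. Isg15 shows the densest cluster, Bst2 a pair of overlapping cores, Ifit1, Ifit3 and Ifit3b a pair of cores each, read on the opposite strand and spaced differently in Ifit1, and Rsad2 a single core.
Isg15 (chr4:156200845-156200926, minus strand): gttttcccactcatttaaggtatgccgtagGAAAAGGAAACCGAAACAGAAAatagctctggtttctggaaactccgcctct
Bst2 (chr8:71537557-71537632, minus strand): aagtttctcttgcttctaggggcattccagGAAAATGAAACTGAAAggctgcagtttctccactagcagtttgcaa
Ifit1 (chr19:34640755-34640843, plus strand): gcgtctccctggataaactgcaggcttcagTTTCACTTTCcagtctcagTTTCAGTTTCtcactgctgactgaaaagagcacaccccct
Ifit3 (chr19:34583343-34583446, plus strand): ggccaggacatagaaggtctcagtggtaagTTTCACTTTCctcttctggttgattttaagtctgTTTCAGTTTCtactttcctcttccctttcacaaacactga
Ifit3b (chr19:34607739-34607842, plus strand): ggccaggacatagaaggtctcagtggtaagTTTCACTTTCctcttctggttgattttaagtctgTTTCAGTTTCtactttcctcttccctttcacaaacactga
Rsad2 (chr12:26456533-26456602, minus strand): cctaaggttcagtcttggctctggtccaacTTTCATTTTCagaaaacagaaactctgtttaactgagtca
The Isg15 run holds 3 overlapping cores, whose first bases lie at -78, -72 and -66 from the start. The windows of Ifit3 and Ifit3b were identical in 104 of 104 bases. Beyond these windows the core also matched near the starts of Ifih1 (GAAACAGAAA, 33 bases after the start), Eif2ak2 (GAAAACGAAA, 19 bases after), Phf11b (GAAAAAGAAA, at -50) and Ddx60, Ddx58, Ifi203, Ifitm2, Ifitm3, Shisa5 and Tdrd7. Ifit2, the IFIT gene with the highest WT level, had a promoter entry with a GAS core at -241 and no ISRE core. No entry was used for Rtp4, Zbp1, Parp9, Parp10, Parp14, Dhx58, Mx1, Mx2, Ly6e, Ifi204, Tor3a, Ifi27 and Usp18.

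The 52 genes spanned a wide range of expression in WT cells, short of the most abundant genes. Shisa5, which encodes an endoplasmic reticulum protein of apoptosis, was at 160 FPKM in both WT libraries and ranked 302 among all genes, and Ddx60 and Ifit3b had no WT read. In WT, 11 genes had a mean of at least 10 FPKM, 19 lay from 1 to 10, 12 from 0.1 to 1 and 10 under 0.1. The 5 genes with the highest WT means, Shisa5, Ly6e, Ifitm2, Bst2 and Daxx, held 71.5% of the summed WT FPKM of the list. Of all gene-assigned reads the listed genes took 0.169% and 0.172% in WT and 0.242% and 0.258% in cKO. Both cKO shares were above both WT shares.

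The fold changes of the list were mostly positive, for 29 of the 32 tested genes against 49.4% of all tested genes. The 10 of 32 tested genes called higher (limma on log2(FPKM + 1), adjusted p under 0.05) compare with 0.814% of all tested genes, and the 0 called lower with 0.256%. The median log2 fold change was 0.65 over the 32 genes, with 0.66 in cKO replicate 1 and 0.64 in cKO replicate 2 when each is set against WT, and -0.0034 over all 10562 tested genes. Usp18 and Xaf1 reached the filter only through their cKO values, so these counts are a description. On whole reads recovered from the FPKM values (limma voom, genes with at least 10 reads over the 4 libraries), 26 of 50 genes were higher and 0 lower, against 2.23% of all genes higher. With the filter of 1 FPKM kept, voom called 18 of the 32, against 2.68% of all genes. Mx2, Ifi204 and Rtp4, called by voom, and Ifit3, Mx1, Rsad2 and Ifi44, not called, reached 10 reads only through the cKO libraries, so the 26 of 50 are a description too. Below, a voom p of a gene tested by limma comes from the fit with the FPKM filter, and that of a gene under 1 FPKM from the fit of genes with at least 10 reads, unless stated. A fit that leaves out 1 library has a single library in 1 genotype. Without cKO replicate 2, limma called far more of all tested genes than with every library. Passing there says little about a gene.

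Non-overlap of the genotypes gave the same description without a model. Both cKO values were above both WT values for 46 of the 52 genes. Among the tested genes this held for 26 of 32, against 27.2% of all tested genes. It held for all 20 genes under the filter, against 24.5% of the genes under 1 FPKM with at least 10 reads. These sets are unlike, since Ddx60 and Ifit3b had fewer than 10 reads. Mx1, Mx2, Ifit3, Rsad2, Ifi204, Ifi44 and Rtp4 reached 10 reads only through the cKO libraries. Usp18 and Xaf1 passed 1 FPKM only through their cKO values. Both contrasts are therefore a description. The groups overlapped for Ifit2, Ifitm1, Ifitm2, Pnpt1, Daxx and Tor3a, and no gene had both cKO values under both WT values.

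**Figure D1:**
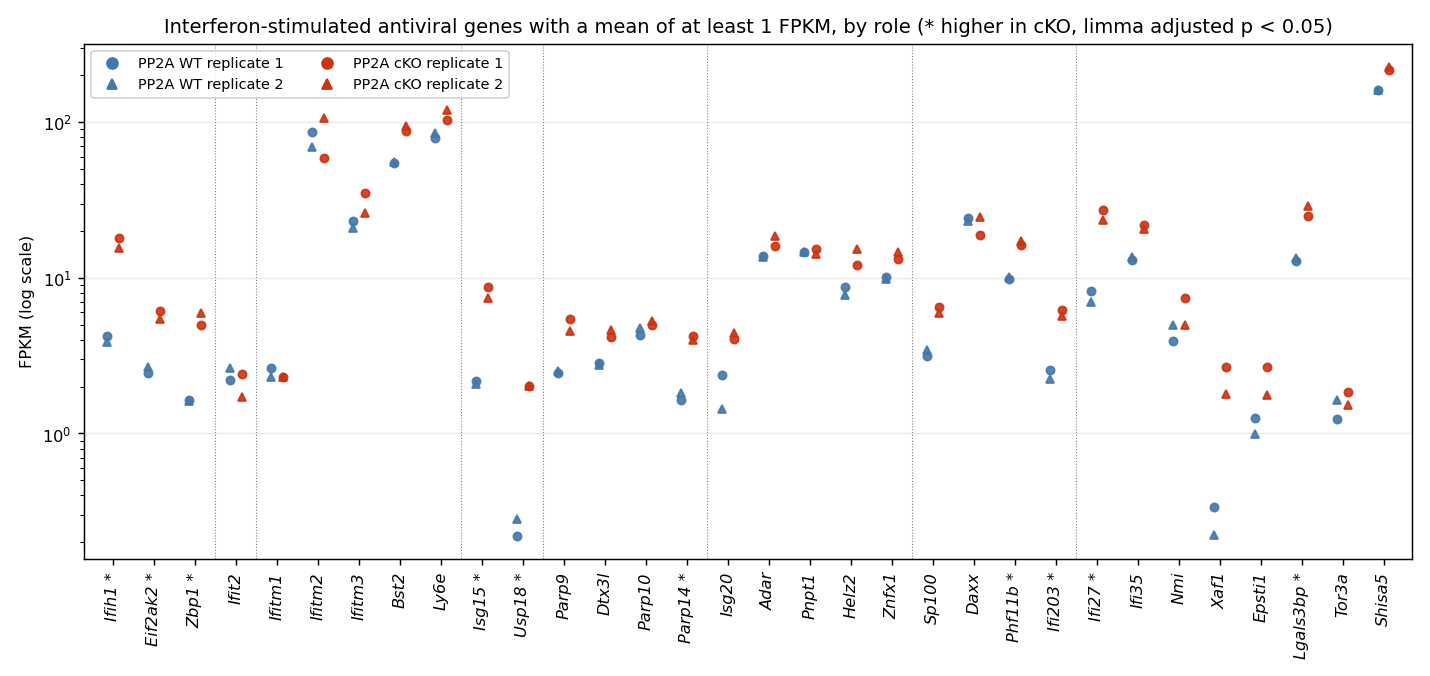
FPKM (y axis, log scale) of the 32 tested interferon-stimulated genes (x axis, by role) in the 2 PP2A WT (blue) and 2 PP2A cKO (red) libraries, circles for replicate 1 and triangles for replicate 2. The 10 genes with a star passed the limma test, and the groups overlap for Ifit2, Ifitm1, Ifitm2, Pnpt1, Daxx and Tor3a.

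All 3 tested cytosolic RNA sensors rose. Ifih1 encodes MDA5, which binds long double-stranded RNA and signals through MAVS (chromosome 2, 62595798 to 62646255, minus strand, GRCm38). Its FPKM was 4.24 and 3.87 in WT, against 17.98 and 15.5 in cKO. Both cKO values were above both WT values, with a log2 fold change of 1.81 ± 0.11 (SE; limma, adjusted p = 0.0166) and 4.13-fold in mean FPKM. Zbp1 encodes a sensor of left-handed nucleic acid that can start necroptosis (chromosome 2, 173206612 to 173218923, minus strand). It had 1.64 and 1.62 FPKM in WT and 5.01 and 5.95 in cKO, without overlap (1.30 ± 0.11; limma, adjusted p = 0.027). Eif2ak2 encodes PKR, the kinase that halts translation on double-stranded RNA (chromosome 17, 78852564 to 78882573, minus strand). It had 2.46 and 2.69 FPKM in WT and 6.09 and 5.45 in cKO, without overlap (0.92 ± 0.10; limma, adjusted p = 0.0381).

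The other 3 sensors were under 1 FPKM on average. Ddx58, which encodes the 5′-triphosphate RNA sensor RIG-I, had 83 and 79 reads in WT and 164 and 192 in cKO. Its read ratio after scaling for depth was 2.14 (exact 95% interval 1.77 to 2.59, counting error only), and voom called it higher (adjusted p = 0.0263). Dhx58, which encodes the regulator LGP2, had 35 and 29 reads in WT and 85 and 57 in cKO (ratio 2.16, 1.60 to 2.95; voom, adjusted p = 0.0869; 0.00502 without cKO replicate 2). The helicase gene Ddx60 had 0 reads in both WT libraries and 7 and 2 in cKO, at least 2.92-fold higher against a floor of 3 reads over the WT group. Ifih1 and Zbp1 passed whichever library was left out. Eif2ak2 was not called without WT replicate 1 or 2 (limma, adjusted p = 0.107 and 0.108), nor was Ddx58 by voom (adjusted p = 0.060 and 0.082). Exons of Eif2ak2 share 174 bases with Gm26637 on the opposite strand and also overlap n-R5s29 there. Whether the counting used strand is not known here, so some Eif2ak2 reads could belong to these genes.

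The IFIT proteins, which bind viral RNA by its 5′ end, lay low and differed among themselves. Ifit2 (chromosome 19, 34550694 to 34576419, plus strand) was the single tested IFIT gene. It had 2.20 and 2.65 FPKM in WT and 2.42 and 1.71 in cKO, so the genotypes overlapped (log2 fold change -0.17 ± 0.16; limma, adjusted p = 0.565). Its sign turned without cKO replicate 2, where the fold change was 0.0003. Its neighbour Ifit1 had 16 and 12 reads in WT and 58 and 37 in cKO, a ratio of 3.30 (2.15 to 5.23; voom, adjusted p = 0.0551). Without cKO replicate 2 that p was 0.00308. Ifit3 had 1 and 3 reads in WT and 14 and 6 in cKO (ratio 4.87, 1.63 to 19.6; voom, adjusted p = 0.194; 0.028 without cKO replicate 2). Ifit3b had 0 reads in both WT libraries and 2 and 5 in cKO, at least 2.27-fold higher against the same floor. Ifit3 and Ifit3b are near-identical copies between which reads can be split by the counting.

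The MX GTPases, which trap viral nucleocapsids, were almost silent in WT. Mx1 had 3 and 2 reads in WT and 18 and 11 in cKO (ratio 5.65, 2.16 to 18.7; voom, adjusted p = 0.0856). Mx2, annotated as a polymorphic pseudogene, had 1 and 2 reads in WT and 20 and 16 in cKO (ratio 11.7, 3.69 to 59.3; voom, adjusted p = 0.0347). Both cKO libraries were above both WT libraries for each gene. Mx1 passed without cKO replicate 2 (adjusted p = 0.0154), and Mx2 was not called without WT replicate 1 or 2 (adjusted p = 0.142 and 0.0904).

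**Figure D2:**
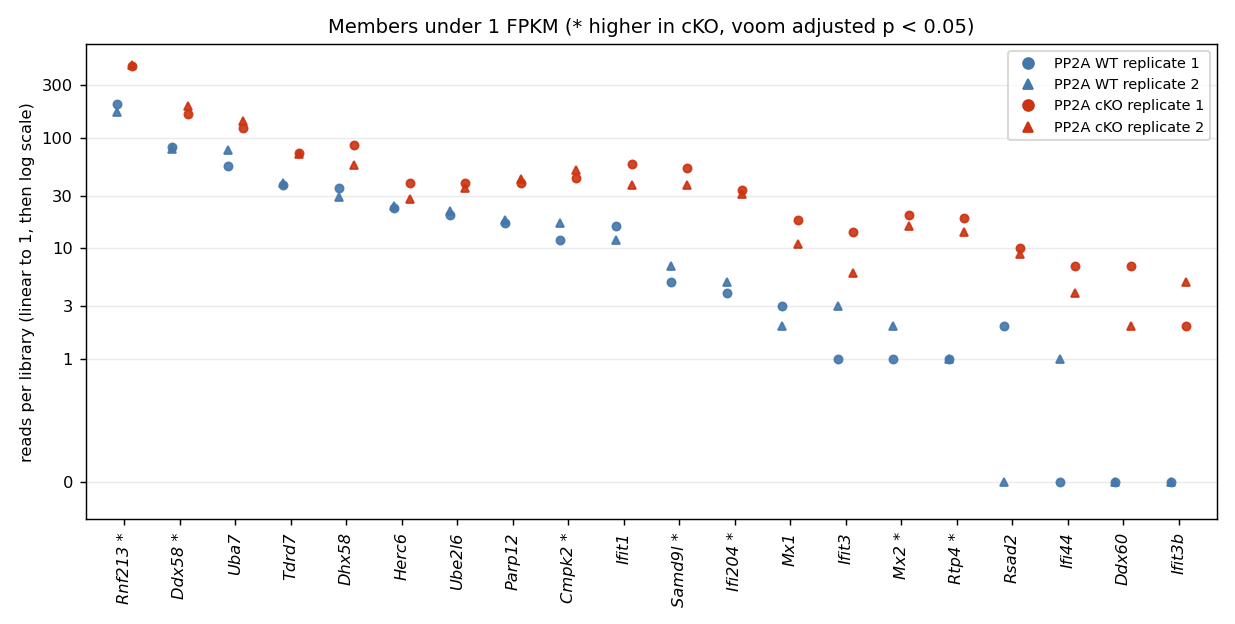
Reads per library (y axis, linear up to 1 and log above) of the 20 interferon-stimulated genes under 1 FPKM (x axis), in the 2 PP2A WT (blue) and 2 PP2A cKO (red) libraries. Both cKO libraries lie above both WT libraries for all 20 genes, and the 7 genes with a star passed the voom test.

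Of the membrane restriction factors, several of them abundant in WT, 0 of 5 tested passed by limma and 1, Bst2, by voom. Ly6e, a GPI-anchored protein that blocks coronavirus fusion, had 79.3 and 85.7 FPKM in WT and 103 and 119 in cKO. The groups did not overlap, yet the log2 fold change of 0.42 ± 0.12 did not pass (limma, adjusted p = 0.149). Bst2, which encodes the virion tether tetherin, had 54.3 and 55.7 FPKM in WT and 87.9 and 94.8 in cKO. It lay just outside the threshold (0.72 ± 0.10; limma, adjusted p = 0.0504) and was called by voom (adjusted p = 0.0158). The limma log2 fold change of Bst2 was 0.77 without cKO replicate 1 and 0.67 without cKO replicate 2, and that of Ly6e 0.53 and 0.32.

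The IFITM genes encode proteins that stiffen membranes against viral fusion, and they differed among themselves. Ifitm3 had 23.1 and 20.8 FPKM in WT and 35.0 and 26.0 in cKO, without overlap (0.44 ± 0.16; limma, adjusted p = 0.227). Its log2 fold change was 0.24 without cKO replicate 1 and 0.65 without cKO replicate 2. Ifitm2, whose exons share 268 bases with a gene on the same strand, had 86.6 and 68.7 FPKM in WT and 58.4 and 105 in cKO. The cKO libraries lay on either side of both WT libraries, and the sign of the fold change (0.025 ± 0.30) depended on the library left out, at -0.40 without cKO replicate 2 and 0.45 without cKO replicate 1. Ifitm1 had 2.62 and 2.30 FPKM in WT and 2.29 and 2.31 in cKO (-0.06 ± 0.11; limma, adjusted p = 0.751). Its fold change was 0.0024 without WT replicate 1. Rsad2, which encodes viperin, a maker of a chain-terminating nucleotide, had 2 and 0 reads in WT and 10 and 9 in cKO. That is a ratio of 9.25 with a wide interval (2.23 to 81.9; voom, adjusted p = 0.0831; adjusted p = 0.0359 without cKO replicate 2).

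The ISG15 system showed its highest folds at the modifier and the protease. Isg15 encodes the ubiquitin-like protein that is joined to newly made proteins (chromosome 4, 156199424 to 156200818, minus strand). It had 2.16 and 2.08 FPKM in WT and 8.72 and 7.37 in cKO, without overlap (log2 fold change 1.53 ± 0.11; limma, adjusted p = 0.0206; 3.79-fold). The value rests on 32 and 30 reads in WT and on 134 and 108 in cKO. Usp18 encodes the protease that removes ISG15 and also dampens the receptor IFNAR2 (chromosome 6, 121245906 to 121270917, plus strand). It had 0.220 and 0.281 FPKM in WT and 2.01 in both cKO libraries (1.27 ± 0.12; limma, adjusted p = 0.0298; read ratio 8.04, 5.38 to 12.5). Both of its cKO values were above both WT values, and 124 of its exon bases are shared with a gene on the opposite strand.

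The enzymes that attach ISG15 were under 1 FPKM on average and none of the 3 was called. The activating enzyme gene Uba7 had 56 and 78 reads in WT and 122 and 140 in cKO (ratio 1.90, 1.54 to 2.36; voom, adjusted p = 0.0711). The conjugating enzyme gene Ube2l6 had 20 and 22 against 39 and 35 (ratio 1.72, 1.16 to 2.57; adjusted p = 0.217). The ligase gene Herc6 had 23 and 24 against 39 and 28, with an interval that includes 1 (ratio 1.39, 0.942 to 2.06; adjusted p = 0.466). Exons of Herc6 share 1269 bases with a gene on the same strand. Isg15 passed whichever library was left out, and Usp18 was not called without cKO replicate 1 (limma, adjusted p = 0.0512). Uba7 passed without cKO replicate 1 or 2 (voom, adjusted p = 0.015 and 0.0313).

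The ADP-ribosyltransferase genes and Dtx3l, the ubiquitin ligase that partners PARP9, contained 1 call by limma among 4 tested, and 3 by voom. Parp14, a mono-ADP-ribosyltransferase of macrophage and T helper signalling (chromosome 16, 35832874 to 35871544, minus strand), had 1.63 and 1.82 FPKM in WT and 4.21 and 4.00 in cKO. The groups did not overlap (0.90 ± 0.10; limma, adjusted p = 0.0388). Exons of Parp14 share 110 bases with a gene on the same strand. Parp9 had 2.43 and 2.54 FPKM in WT and 5.45 and 4.57 in cKO, just outside the threshold (0.78 ± 0.11; limma, adjusted p = 0.0541; voom, adjusted p = 0.016). Dtx3l had 2.84 and 2.73 against 4.18 and 4.63 FPKM (0.51 ± 0.10; limma, adjusted p = 0.0784; voom, adjusted p = 0.0337). Parp9 and Dtx3l stand head to head and share 458 exon bases on opposite strands, so their reads cannot be fully told apart.

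Parp10, the most abundant of these genes in WT, had 4.30 and 4.74 FPKM against 4.95 and 5.27 (0.15 ± 0.09; limma, adjusted p = 0.428). Parp12, a Golgi-associated member, had 17 and 18 reads in WT and 39 and 42 in cKO (ratio 2.25, 1.5 to 3.45; voom, adjusted p = 0.0897). Parp14 was not called without WT replicate 1, WT replicate 2 or cKO replicate 1 (limma, adjusted p = 0.107, 0.106 and 0.0511), and Parp9 and Dtx3l passed without cKO replicate 2 (adjusted p = 0.0139 and 0.0374).

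Of the enzymes that act on RNA and nucleotides, 0 of 5 tested passed by limma and 2, Isg20 and Helz2, by voom. Isg20, an exonuclease that degrades single-stranded RNA, had 2.39 and 1.44 FPKM in WT and 4.05 and 4.41 in cKO (0.86 ± 0.18; limma, adjusted p = 0.0883; voom, adjusted p = 0.0459). The WT libraries differed here more than the cKO libraries did. Pnpt1, a mitochondrial polynucleotide phosphorylase, had 14.7 and 14.6 FPKM in WT against 15.4 and 14.1 in cKO, with overlap (0.0057 ± 0.092; limma, adjusted p = 0.976). The helicase genes Helz2 and Znfx1 had 8.76 and 7.75 against 12.2 and 15.3 FPKM and 10.2 and 9.89 against 13.1 and 14.6 FPKM (limma, adjusted p = 0.0874 and 0.0992; voom, adjusted p = 0.0325 and 0.0521). Adar, the adenosine deaminase that edits double-stranded RNA, had 13.7 and 13.6 FPKM against 15.9 and 18.6 (0.31 ± 0.11; limma, adjusted p = 0.209). Its exons share 1365 bases with Chrnb2 on the opposite strand.

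Under the filter, Cmpk2, a mitochondrial nucleotide kinase gene, had 12 and 17 reads in WT and 43 and 51 in cKO (ratio 3.16, 2.06 to 4.97; voom, adjusted p = 0.0452). Samd9l, a translation inhibitor, had 5 and 7 reads in WT and 53 and 37 in cKO (ratio 7.30, 3.98 to 14.7; voom, adjusted p = 0.0199). Tdrd7 had 37 and 39 against 72 and 71 reads (ratio 1.83, 1.38 to 2.45; voom, adjusted p = 0.0904). Samd9l passed by voom whichever library was left out, and Cmpk2 was not called without WT replicate 1 or 2 (adjusted p = 0.231 and 0.0876). The limma log2 fold change of Helz2 was 0.82 without cKO replicate 1 and 0.51 without cKO replicate 2, and that of Znfx1 0.50 and 0.36.

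Of 4 tested nuclear and DNA-binding members 2 rose by limma and 3 by voom. Ifi203, an interferon-inducible PYHIN family gene (chromosome 1, 173920407 to 173942672, minus strand), had 2.58 and 2.25 FPKM in WT and 6.17 and 5.67 in cKO (1.02 ± 0.10; limma, adjusted p = 0.0343). Phf11b, a PHD finger gene (chromosome 14, 59320964 to 59341351, minus strand), had 9.84 and 10.1 FPKM in WT and 16.3 and 17.3 in cKO (0.70 ± 0.09; limma, adjusted p = 0.0475). Neither gene overlapped between genotypes. Ifi204, the PYHIN DNA sensor gene, was called by voom, from 4 and 5 reads in WT to 34 and 31 in cKO (ratio 7.03, 3.49 to 16.1; adjusted p = 0.022). The PYHIN genes of chromosome 1 resemble each other, and 37 exon bases of Ifi203 are shared with Mndal, so these values are uncertain.

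Sp100 and Daxx encode proteins of PML nuclear bodies that silence incoming viral genomes, and they differed. Sp100 had 3.17 and 3.45 FPKM in WT and 6.54 and 5.91 in cKO, just outside the threshold (0.75 ± 0.10; limma, adjusted p = 0.0504; voom, adjusted p = 0.0129). Daxx had 24.1 and 23.2 FPKM in WT and 18.7 and 24.7 in cKO, which overlap (-0.13 ± 0.15; limma, adjusted p = 0.637). The log2 fold change of Daxx was -0.32 without cKO replicate 2 and 0.060 without cKO replicate 1. Sp100 passed without cKO replicate 2 (adjusted p = 0.0151). Without WT replicate 1 or 2, Ifi203 was not called (adjusted p = 0.0552 and 0.109), nor was Phf11b (adjusted p = 0.252 and 0.278). By voom, Ifi204 was not called without WT replicate 1 (adjusted p = 0.0619).

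Among the remaining 11 interferon-stimulated genes, 2 of 8 tested rose by limma and 4 by voom. Ifi27, a small membrane protein gene of the mitochondrion and nuclear envelope (chromosome 12, 103434211 to 103440239, plus strand), had 8.19 and 6.99 FPKM in WT and 27.2 and 23.6 in cKO. The groups did not overlap (1.62 ± 0.12; limma, adjusted p = 0.0206). Lgals3bp, a secreted galectin-binding glycoprotein gene (chromosome 11, 118392751 to 118402092, minus strand), had 12.9 and 13.4 FPKM in WT and 24.9 and 28.9 in cKO (0.98 ± 0.11; limma, adjusted p = 0.0375). Ifi27 passed whichever library was left out, while Lgals3bp was not called without WT replicate 1 or 2 (adjusted p = 0.135 and 0.151).

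Xaf1, an antagonist of the caspase inhibitor XIAP, had 0.338 and 0.223 FPKM in WT and 2.69 and 1.78 in cKO. The read ratio was 7.98 (5.96 to 10.9), the log2 fold change 1.32 ± 0.18 just outside the threshold (limma, adjusted p = 0.0504; voom, adjusted p = 0.0105). Shisa5, the most abundant gene of the list, had 160 in both WT libraries against 215 and 225 FPKM (0.45 ± 0.10; limma, adjusted p = 0.095). It was not called by voom with the FPKM filter (adjusted p = 0.0536) but was called by voom on genes with at least 10 reads (adjusted p = 0.0475). Ifi35 and its binding partner gene Nmi had 13.0 and 13.6 against 21.9 and 20.7 FPKM, and 3.91 and 4.996 against 7.40 and 4.999 FPKM (limma, adjusted p = 0.0541 and 0.338). Epsti1 had 1.26 and 0.994 against 2.66 and 1.76 FPKM (limma, adjusted p = 0.165), and the torsin gene Tor3a had 1.25 and 1.64 against 1.83 and 1.52, with overlap (limma, adjusted p = 0.607). Without cKO replicate 2 the limma log2 fold changes of Xaf1, Shisa5, Ifi35, Nmi and Epsti1 were 1.53, 0.42, 0.68, 0.63 and 0.78. Without cKO replicate 1 they were 1.12, 0.48, 0.60, 0.15 and 0.38.

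Of the 3 low genes in this group, Rtp4, a chaperone of G protein-coupled receptors, had the highest ratio of the list. It had 1 read in each WT library and 19 and 14 in cKO (ratio 16.1, 4.11 to 138; voom, adjusted p = 0.0334). Exons of Rtp4 share 296 bases with a gene on the same strand. Rnf213, a large antimicrobial ubiquitin ligase gene, had 201 and 170 reads in WT and 439 and 453 in cKO (ratio 2.34, 2.07 to 2.65; voom, adjusted p = 0.00666), and 1476 of its exon bases are shared with a gene on the opposite strand. Ifi44 had 0 and 1 reads in WT and 7 and 4 in cKO (voom, adjusted p = 0.126; 0.0486 without cKO replicate 2). Rnf213 passed whichever library was left out, and Rtp4 was not called without WT replicate 1 or 2 (adjusted p = 0.101 and 0.119).

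Ratios were higher where the WT level was lower. The median ratio of mean FPKM, cKO over WT, was 1.37 in the 11 genes with a WT mean of at least 10 FPKM (0.918 to 2.05). It was 1.96 in the 19 genes from 1 to 10 FPKM (0.850 to 4.13), 2.21 in the 12 from 0.1 to 1 (1.38 to 8.03) and 8.31 in those under 0.1 with a WT read (4.8 to 16). Spearman's rho between the WT mean and the ratio was -0.731 over the 50 genes with WT reads. The WT value stands in both measures and the genes share the same 4 libraries, so this is a description. Of these 50 genes 47 had a ratio above 1, and 26 had at least 2. Among tested genes, 12 of the 32 had a ratio of at least 2, against 2.19% of all tested genes. The 12 include Usp18 and Xaf1, which passed the filter only through their cKO values. Under the filter, the median ratio was 3.23 over the 18 listed genes with WT reads and 1.02 over all 4860 genes with at least 10 reads and a WT read. Among the 18, Mx1, Mx2, Ifit3, Rsad2, Ifi204, Ifi44 and Rtp4 reached 10 reads only through the cKO libraries. Both contrasts are a description.

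**Figure D3:**
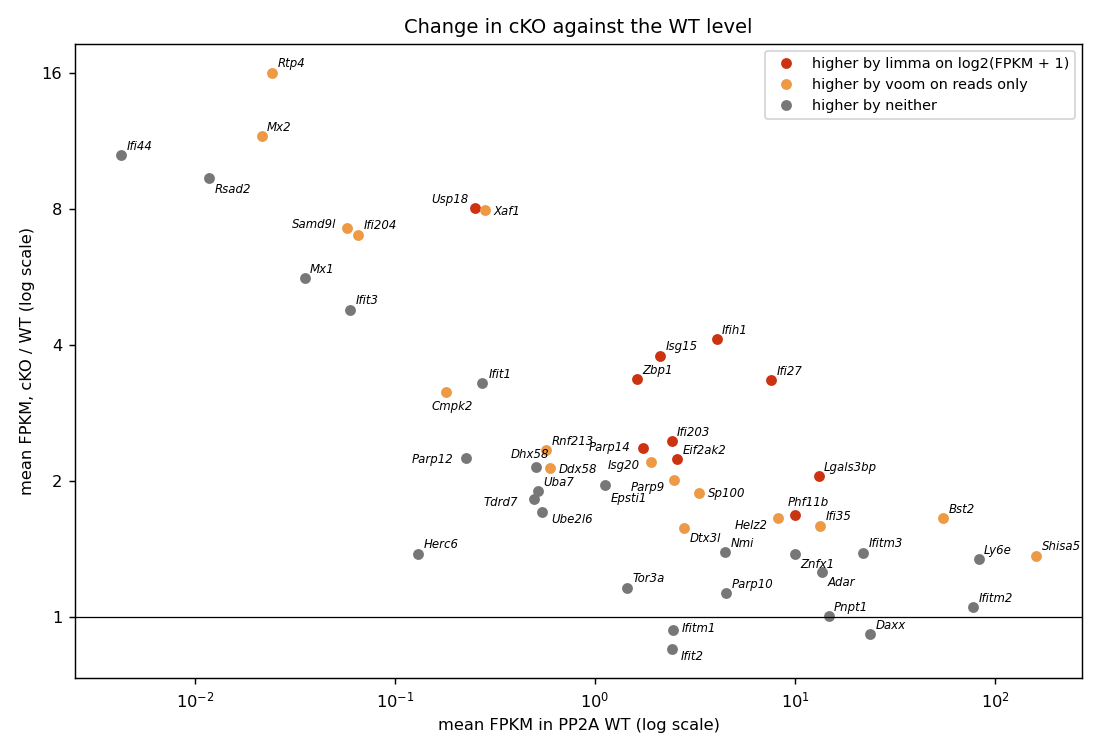
Ratio of mean FPKM, cKO over WT (y axis, log scale), against the mean FPKM in PP2A WT (x axis, log scale) for the 50 interferon-stimulated genes with WT reads, coloured by the test that called them. Ratios lie between 0.918 and 2.05 above 10 FPKM and between 4.8 and 16 under 0.1 FPKM, where they rest on few reads.

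Among the genes that carry the interferon signal, 2 of 34 tested rose by limma and 0 fell, against 0.814% and 0.256% of all tested genes. By voom 7 were higher, against 2.68% of all tested genes. The 1 gene lower by voom compares with 274 of all 10562 tested genes. The median log2 fold change was 0.13 by limma. The list held 58 genes found by name, of which 24 were under the filter. Irf7, the transcription factor that amplifies interferon production and is itself induced by interferon, had 0.812 and 0.707 FPKM in WT and 2.63 and 3.02 in cKO, without overlap (1.12 ± 0.12; limma, adjusted p = 0.0356), and reached the filter only through its cKO values. Stat2 had 3.73 and 3.93 FPKM in WT and 6.59 and 7.03 in cKO, without overlap (0.69 ± 0.09; limma, adjusted p = 0.0491). Without WT replicate 1 or 2, neither Irf7 (adjusted p = 0.0535 and 0.0815) nor Stat2 (adjusted p = 0.216 and 0.23) was called. Irf9 had 9.78 and 10.3 against 14.3 and 16.8 FPKM (0.58 ± 0.11; limma, adjusted p = 0.078). It did not pass in the limma fit of all libraries, but was called by voom (adjusted p = 0.0328) and by limma without cKO replicate 1 or 2 (adjusted p = 0.0471 and 0.022).

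No ligand or receptor gene was called by limma. Of 20 ligand genes 1 was tested, Ifng, with 9.23 and 7.92 FPKM in WT and 20.8 and 14.3 in cKO (0.93 ± 0.19; limma, adjusted p = 0.0839; voom, adjusted p = 0.0406; limma without cKO replicate 2, adjusted p = 0.012). Antibody against its protein was in the culture of both genotypes. Ifnb1 had 0 reads in both WT libraries and 4 and 1 in cKO, and no interferon alpha gene had more than 1 read in a library. The lambda receptor gene Ifnlr1 had 0 reads in both WT libraries and 5 and 6 in cKO. It reached 10 reads only through the cKO libraries, so its voom value (adjusted p = 0.0405, genes with at least 10 reads) is a description. Ifnar1 had 6.35 and 6.39 FPKM in WT and 8.17 and 8.96 in cKO (0.38 ± 0.09; limma, adjusted p = 0.114; 0.046 without cKO replicate 2), and Ifnar2 had 4.64 in both WT libraries against 4.36 and 4.32 (-0.08 ± 0.09; limma, adjusted p = 0.628). None of the 5 tested receptor genes, 6 tested inhibitors of the pathway, Socs1 among them, and 10 tested sensing adaptors and kinases, Mavs and Tbk1 among them, was called by limma. By voom the kinase gene Ikbke was higher (adjusted p = 0.0459) and the adaptor gene Traf3 lower (adjusted p = 0.0443).

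**Figure D4:**
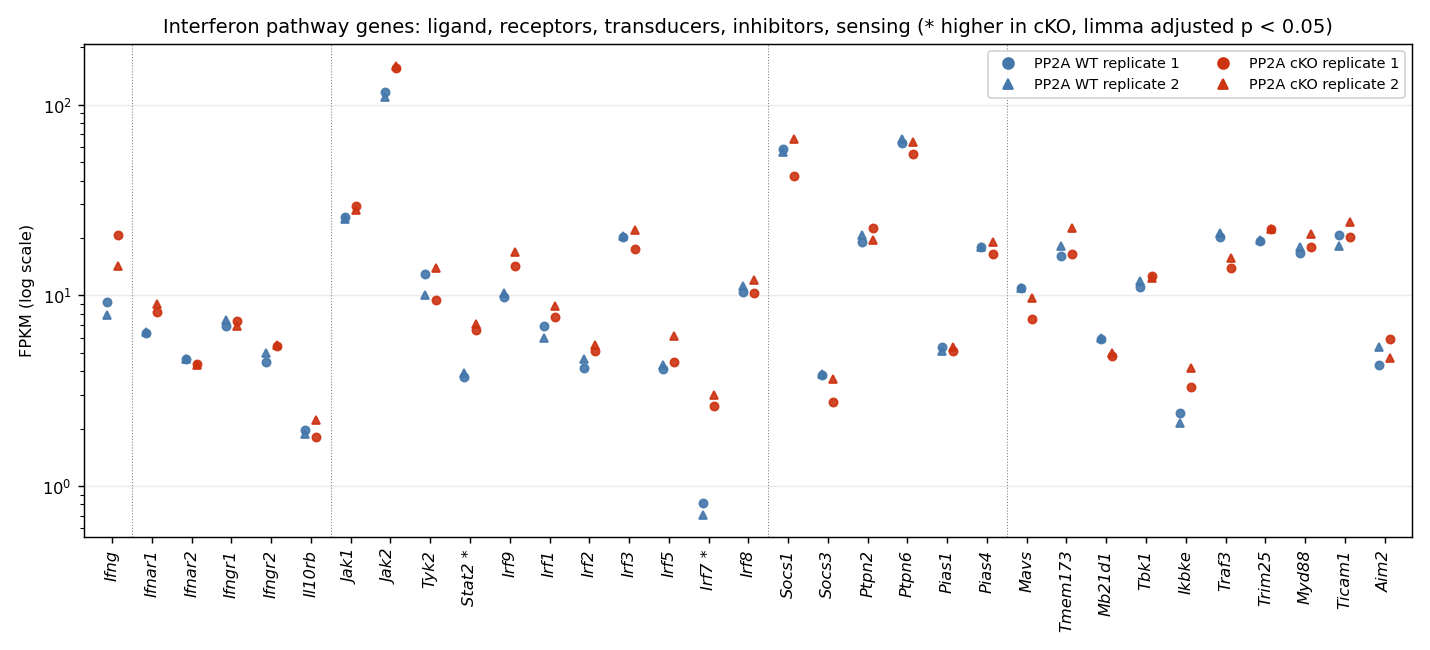
FPKM (y axis, log scale) of tested genes of interferon signalling (x axis, 1 of the 34 not shown), ordered as ligand, receptors, transducers, inhibitors and sensing genes, in the 2 PP2A WT (blue) and 2 PP2A cKO (red) libraries. Stat2 and Irf7, with stars, passed the limma test, and Ifnar2 lies at 4.64 FPKM in both WT libraries and at 4.36 and 4.32 in cKO.

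The count of called genes depended on the setting more than the direction did. Ifih1, Isg15 and Ifi27 were called in each of the 14 alternative settings that kept a filter on low values, and Zbp1 in each of them except a filter of 5 FPKM, under which it was not tested. Without a filter on low genes 0 of 21807 genes passed (limma; 3012 had an unadjusted p under 0.05, 38 of them listed here, with a lowest adjusted p of 0.148). With the filter of 1 FPKM kept, voom called 18 listed genes. Leaving out WT replicate 1 or WT replicate 2 left 5 called genes each, Usp18 beside those 4. The omission of cKO replicate 1 gave 12, and that of cKO replicate 2 gave 23 higher and 1 lower. Over all tested genes, leaving out the WT libraries in turn gave 66 and 49 higher and leaving out cKO replicate 1 gave 148. The fit that lacked cKO replicate 2 called 1390 of all tested genes higher and 1614 lower, against 86 and 27 with every library. A correction for GC content called 19 higher, all 10 of the main test among them. Of the 26 genes called by voom with at least 10 reads, 18 had a promoter entry and 8 of these held the ISRE core, as did 8 of the 21 others with an entry. The others include Ddx60 and Ifit3b, which held the core but had too few reads to be tested.

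**Figure D5:**
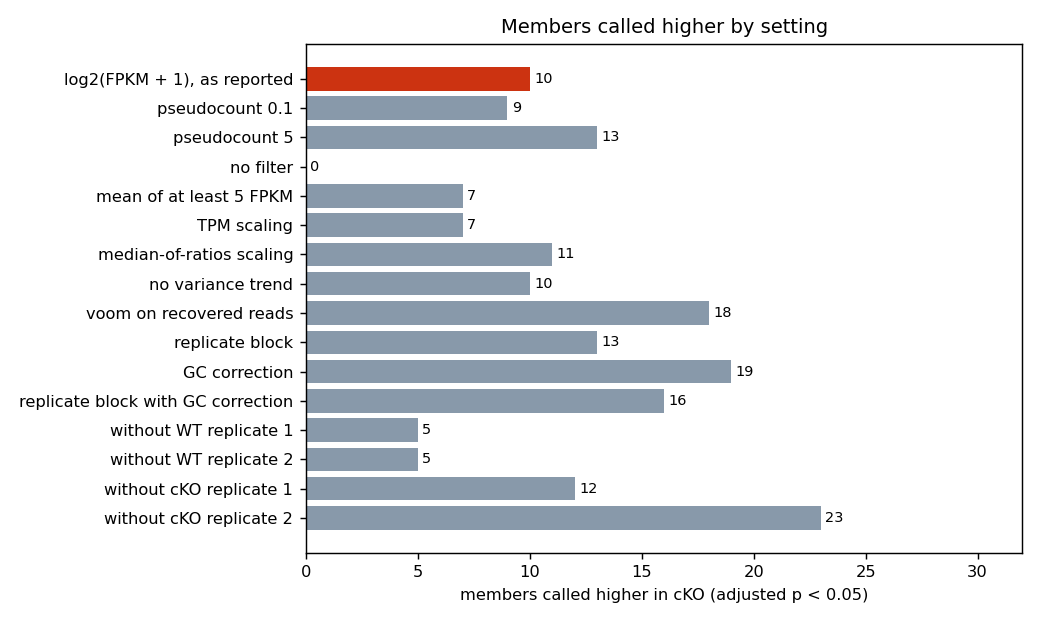
Number of the listed genes called higher in cKO (x axis, adjusted p under 0.05) in the test as reported and under each alternative setting (y axis). The count is 10 as reported, 0 without a filter, 5 without either WT library and 23 without cKO replicate 2.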

How the data were processed

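The authors deposited FPKM per gene with gene lengths and symbols for 4 libraries. Per the submitters' processing notes, reads were counted with featureCounts 1.5.0-p3 on GRCm38 (mm10). For aligner, annotation release and strand setting the sources used here give nothing.

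Genes averaging at least 1 FPKM were fitted with limma 3.58.1 (R 4.3.3) on log2(FPKM + 1), cKO minus WT, with a variance trend, Benjamini-Hochberg adjustment at 0.05, two-sided, n = 2 per genotype. The pseudocount of 1 makes fold changes of low genes too small. FPKM times length was a whole multiple of 1 read for all values (tolerance 0.05 read), so the reads were recovered and fitted with voom (TMM scaling). The voom test of genes with at least 10 reads was chosen after seeing the data. Read ratios are scaled by the library totals implied by the FPKM values, with exact Clopper-Pearson 95% intervals. These totals differ from the gene-assigned reads, by most in WT replicate 2 (19105296 against 18517487). Folds against 0 reads use a floor of 3 reads over the group. An exact permutation test of 2 libraries against 2 cannot go below p = 0.333.

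The listed genes, roles and pathway lists were chosen with earlier results of these data known. Every listed gene is named, with full values for called genes and for the most and least abundant uncalled tested gene of each role. Other genes were added after their values were seen. The procedure was tested on simulated data. Overlaps and GC content come from GENCODE M21. Exons of 17 listed genes overlap another gene, and not every overlap is given above. A single pathway gene is counted but not reported here by name.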

Additional observations from a re-analysis of the deposited data

How the results depend on the processing

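Whether the replicate numbers pair the libraries is not given. The correlation of the differences between replicates (-0.093) cannot decide it, since paired libraries need not share such differences. With a replicate block, 13 of the listed genes, 154 of all genes higher and 73 lower were called. With a GC correction these were 19, 285 and 237, and with the replicate block and GC correction 16, 166 and 86. voom gave 18, 283 and 274. No filter gave 0, 0 and 0. TPM scaling gave 52 of all genes higher, and pseudocounts of 0.1 and 5 gave 15 and 49 lower. Leaving out 1 library gave 5 to 23 listed genes higher and 0 to 1 lower, and of all genes 49 to 1390 higher and 6 to 1614 lower. voom on genes with at least 10 reads called 26 listed genes. Without 1 library it called 15 to 40 higher (31 without cKO replicate 1) and 0 to 2 lower. For these voom fits without 1 library the calls among all genes were not counted. Their counts of listed genes therefore have no background and do not show a rise particular to the list. Of the pathway genes, 1 was higher with a pseudocount of 0.1, a filter of 5 FPKM, TPM scaling or no variance trend, 0 with no filter, 7 by voom and 5 with the GC correction, the latter 2 with 1 lower. Without 1 library 0 to 7 were higher and 0 to 3 lower.

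The median log2 fold change of the tested listed genes was 0.72 and 0.42 with pseudocounts of 0.1 and 5, 0.44 with no filter, 0.45 with a filter of 5 FPKM, 0.62 with TPM scaling, 0.73 by voom, 0.68 with the GC correction with or without the replicate block, and 0.60 to 0.68 without 1 library. The stricter ISRE core was in 28.2% of genes. Signs turned for 5 uncalled genes. Over the omissions of 1 library the fold change of Ifit2 ran from -0.34 to 0.0003 (voom 0.0004 without cKO replicate 2), of Ifitm1 from -0.13 to 0.0024, of Ifitm2 from -0.40 to 0.45 (-0.14 without WT replicate 2, and by voom -0.14 and -0.41 without WT replicate 2 and cKO replicate 2), of Pnpt1 from -0.053 to 0.064 (voom -0.059 without cKO replicate 1) and of Daxx from -0.32 to 0.060 (voom 0.060 without cKO replicate 1). TPM scaling gave -0.068 for Ifitm2 and -0.086 for Pnpt1, and the GC correction, with or without the replicate block, gave -0.072 for Pnpt1. The causes were not tested. Ratios of genes under 0.1 FPKM rest on at most 12 reads in WT.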
